A study of Mus musculus with 3 samples.

Results

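The genes described here are the enzymes that cut, spare or crosslink the extracellular matrix: the matrix metalloproteinases (Mmp genes), their tissue inhibitors (Timp), the secreted proteases with thrombospondin repeats (Adamts), the related proteins without a protease domain (Adamtsl) and the lysyl oxidases (Lox, Loxl1 to Loxl4). They were chosen by name alone, as every gene whose symbol is Mmp, Timp, Adamts or Adamtsl followed by a number, or one of the 5 lysyl oxidases. The rule found 55 of the 29625 genes listed over the 3 libraries. Of these, 22 were Mmp genes, 4 Timp, 19 Adamts, 5 Adamtsl and 5 lysyl oxidases. All 55 were listed in Ctrl and in Ob, and 53 in Mid_Ob, where Mmp1b and Mmp20 were not listed.

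Nuclei of epididymal fat from male C57BL/6J mice were sequenced on the 10x Genomics droplet platform at 3 stages of diet-induced obesity. Ctrl mice had the ordinary diet, Mid_Ob mice were taken while obesity was developing on a diet with 60% fat, and Ob mice were taken on the same diet once obesity had formed. The mice were wild type and carried no transgene; they were bought at 5 weeks of age, and their ages at sampling were not found in the sources used. Fat of 8 mice was mixed into 1 library for each stage, so the spread between mice was not measured. Stages are therefore compared without replicates and without a test.

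Fat cells are held in a mesh of collagen, elastic fibres and proteoglycans that has to be opened and rebuilt when the tissue expands. Metalloproteinases and ADAMTS proteases are made as inactive precursors and cut these fibres once activated, TIMP proteins bind and block the active proteases, and lysyl oxidases oxidise lysines so that collagen and elastin chains crosslink. Fibroblasts, macrophages, mesothelial cells and the adipocytes themselves each make part of this set, and RNA levels do not show how much of an enzyme is active.

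Of the 22 Mmp genes, 9 lie side by side on chromosome 9 in a run of 10 adjacent genes of the family (Mmp13, Mmp12, Mmp1b, Mmp3, Mmp1a, Mmp10, Mmp8, Mmp27, Mmp20 and Mmp7, of which Mmp1a was not listed in the tables). Their promoters are shown because these neighbours had very different levels in the same libraries. In promoters of RefSeq (build GRCm38.p6), from 250 bases before to 50 bases after the start, the letters TGANTCA, known as the AP-1 motif, stood on either strand in 7 of these 9 genes, and TATAAA in 8 of 9. Over all 32851 promoters of this length the shares were 7.81% and 13.6%. Of the other 46 genes described here, 27 had a promoter in the table, and of these 0 held TGANTCA and 3 held TATAAA. The windows below run from 80 bases before to 20 bases after the start, 5′ to 3′ on the plus strand, with TGANTCA and TATAAA in capitals.
Mmp13, chr9:7272434-7272533: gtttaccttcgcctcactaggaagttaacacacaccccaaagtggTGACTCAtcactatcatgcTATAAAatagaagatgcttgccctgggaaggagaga
Mmp12, chr9:7347294-7347393: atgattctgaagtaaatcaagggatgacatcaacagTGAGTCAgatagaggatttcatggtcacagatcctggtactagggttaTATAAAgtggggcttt
Mmp3, chr9:7445742-7445841: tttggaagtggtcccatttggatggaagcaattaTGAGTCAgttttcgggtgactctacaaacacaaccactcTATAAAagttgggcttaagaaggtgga
Mmp10, chr9:7502262-7502361: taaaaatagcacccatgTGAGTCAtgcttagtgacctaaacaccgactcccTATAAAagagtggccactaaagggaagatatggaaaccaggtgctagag
Mmp7, chr9:7692010-7692109: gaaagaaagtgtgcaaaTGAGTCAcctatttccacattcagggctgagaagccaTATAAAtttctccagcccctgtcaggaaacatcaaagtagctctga

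These 5 windows were taken from the 7 genes that held both motifs, so the presence of both was set by the choice. Mmp1b and Mmp20, which also held both, are not shown. The motifs stand in the same order in the 5 windows, and the genes differed widely in count. Over the 3 libraries there were 57557 counts for Mmp12, 1931 for Mmp7, 390 for Mmp3, 116 for Mmp13 and 28 for Mmp10. A match of letters is a description and does not show that a factor binds there.

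The libraries held 53980929 UMIs (transcript molecules counted once) in Ctrl, 57665213 in Mid_Ob and 111595518 in Ob, in 14, 11 and 21 clusters of nuclei. Levels are given as CPM (UMI counts of the gene scaled to the UMI total of its library, class or cluster), with 95% intervals in parentheses that cover counting error only. Higher and lower are used below of a ratio between 2 stages past 1.5-fold that rests on at least 50 counts in the pair. Clusters were named from markers, and 3 facts about them touch the results below. Testis and epididymis clusters held 26.3% (germ cell-like), 15.4% (testis somatic-like) and 5.32% (epididymal epithelium-like) of the UMIs of Ctrl. Epididymal epithelium-like clusters held 30.3% of Mid_Ob, while no cluster of Ob was given such a name. Unnamed clusters, which held 8.97% of the UMIs of Ob, were kept wherever these were left out. RNA of testis or epididymis could thus remain in the values without them. The macrophage-like share was 8.85% in Ctrl, 6.15% in Mid_Ob and 19.6% in Ob. Outside these clusters macrophage markers were also unequal, at 515, 416 and 1140 CPM in adipocyte-like clusters of Ctrl, Mid_Ob and Ob, where cluster 5 of Ob alone had 1744 CPM. Where leaving out testis and epididymis clusters changes a whole-library call or order of a member below, the value without them is given beside it. Family sums, and counts and levels of genes outside the set, are of all clusters unless stated. In a whole library fewer nuclei of a type and less RNA per nucleus cannot be told apart.

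The members together made up 2205, 2300 and 2336 CPM of Ctrl, Mid_Ob and Ob, so their sum in whole libraries was nearly level while its parts differed. Mmp genes summed to 366, 177 and 585 CPM, Timp genes to 236, 148 and 168 CPM, and Adamts genes to 967, 1616 and 1269 CPM. Adamtsl genes summed to 572, 289 and 224 CPM, and lysyl oxidases to 63.4, 69.4 and 90.1 CPM. Thus in whole libraries the Mmp sum was smallest at the middle stage and the Adamts sum was greatest there. The Adamtsl sum was lower in Mid_Ob and Ob than in Ctrl, and the lysyl oxidase sum differed by less than 1.5-fold. All these sums include the testis and epididymis clusters. Sums without them are not given, and the order of the stages could differ there.

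The stages were compared in pairs. In Mid_Ob against Ctrl, 9 of 48 members with enough counts were higher and 18 lower, where 17.3% of all genes were higher and 35.5% lower. In Ob against Mid_Ob, 14 of 50 were higher and 12 lower, against 17.5% and 27.3% of all genes. In Ob against Ctrl, 13 of 50 were higher and 19 lower, against 18.1% and 43.5%. The median log2 ratio of the members was -0.39, -0.04 and -0.13 in these comparisons, where that of all genes was -0.16, -0.09 and -0.35. The shares of lower members were near those of all genes. The shares of higher members were above the background in the 2 comparisons of Ob, but this did not hold without the testis and epididymis clusters: then 7 of 43 members were higher and 21 lower in Mid_Ob than in Ctrl (all genes 15.6% and 22.9%), 8 and 17 of 50 in Ob than in Mid_Ob (15% and 24.8%), and 5 and 20 of 50 in Ob than in Ctrl (17% and 31.9%). In the last 3 comparisons the shares of lower members were above those of all genes. The comparisons share libraries and are not independent of each other.

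**Figure D1:**
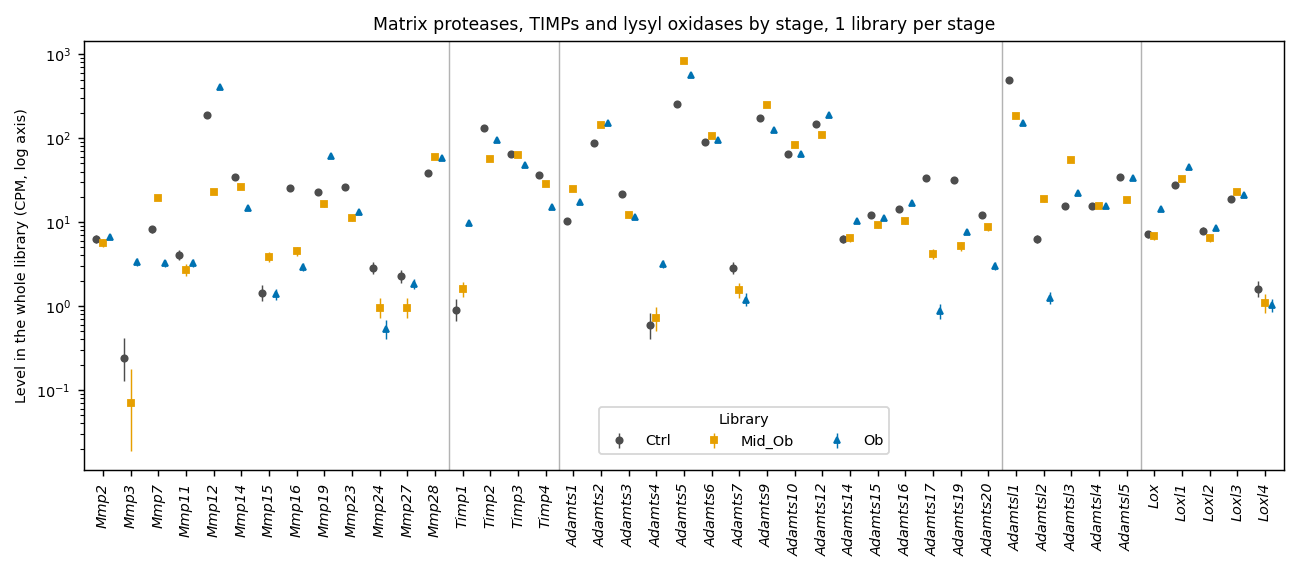
Level of each of the 43 members with at least 200 counts in the whole library of each stage (CPM, log axis), with 95% counting intervals as bars; grey lines part the 5 families. Mmp12 stands at 190, 22.6 and 412 CPM in Ctrl, Mid_Ob and Ob, Timp1 at 0.908, 1.58 and 9.83 CPM, and Adamtsl2 at 6.34, 18.7 and 1.25 CPM.

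**Figure D2:**
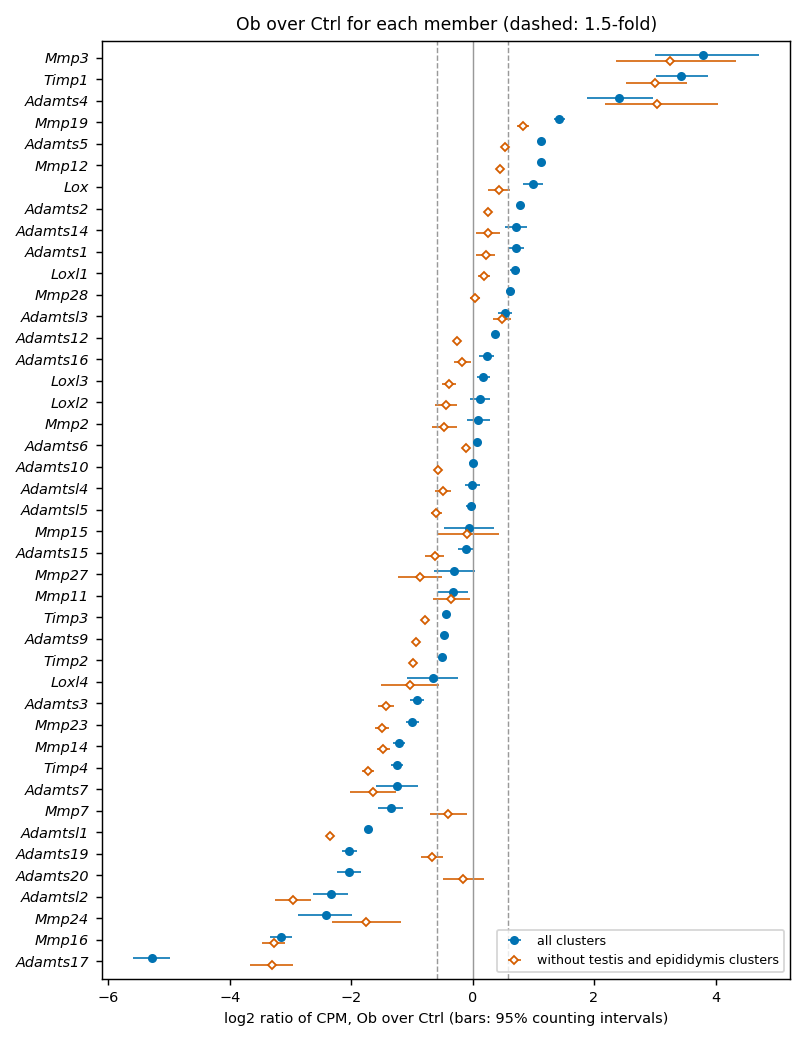
Log2 ratio of the level in Ob over that in Ctrl for each member, from all clusters and from the clusters other than testis and epididymis, with 95% counting intervals. Timp1 has ratios of 10.8 and 8.03, and Mmp12 of 2.17 and 1.37.

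Among the secreted metalloproteinases, Mmp12, the macrophage metalloelastase, made up most of the Mmp counts. Its level was 190 CPM (186 to 194) in Ctrl, 22.6 CPM (21.4 to 23.9) in Mid_Ob and 412 CPM (408 to 416) in Ob. The ratio of Ob over Mid_Ob was 18.2 (17.3 to 19.3), that of Mid_Ob over Ctrl 0.119 (0.112 to 0.126) and that of Ob over Ctrl 2.17 (2.12 to 2.22). The middle stage was thus far below both others, and the difference between Ob and Ctrl was smaller without testis and epididymis clusters, at 1.37. In macrophage-like clusters the level was 859, 170 and 1180 CPM in Ctrl, Mid_Ob and Ob, a ratio of 6.95 (6.41 to 7.54) for Ob over Mid_Ob and within 1.5-fold for Ob over Ctrl. Single clusters of the class varied more than the stages did. In Ob it was 2452 CPM in cluster 2, of which Mmp12 was the leading gene, 1120 in cluster 1 and 502 in cluster 3, but 157 in cluster 14, 90.8 in cluster 11 and 46.2 in cluster 20. Cluster 2 had 4 of 14 macrophage markers past 2-fold, summed at 2348 CPM, so its name rests on few of them. Clusters 11 and 20 had the highest summed macrophage markers of Ob, 10125 and 14834 CPM. The Mmp12 level thus did not follow the macrophage markers among the macrophage-like clusters of Ob. In Ctrl it was 1449 CPM in macrophage-like cluster 11, 324 in macrophage-like cluster 9 and 1633 in cluster 1, which had no name. Mmp12 overlaps Mmp1b on the other strand, and Mmp1b itself had 3 counts in Ctrl, 0 in Mid_Ob and 9 in Ob.

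Mmp12 was also counted where it would not be looked for. Adipocyte-like clusters had 109, 13.9 and 199 CPM in Ctrl, Mid_Ob and Ob, mesothelial-like clusters 119, 7.70 and 126 CPM, and fibroblast or progenitor-like clusters 302 CPM in Ob and 11.7 CPM in Mid_Ob. Even germ cell-like clusters of Ctrl held between 32.1 and 290 CPM. That range holds the adipocyte-like levels of Ctrl and Ob and lies above that of Mid_Ob. Within the adipocyte-like class of Ob, cluster 5, with macrophage markers at 1744 CPM, had 306 CPM of Mmp12, whereas clusters 4 and 7, with 273 and 282 CPM of these markers, had 45.0 and 42.8 CPM. Without cluster 5 the ratio of Ob over Ctrl in this class was 0.407 in place of 1.83. The same holds for fibroblast or progenitor-like nuclei of Ob, where cluster 19, with macrophage markers at 2714 CPM, had 585 CPM and cluster 8 had 53.5 CPM. The part of RNA from macrophages in these levels was not tested.

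**Figure D3:**
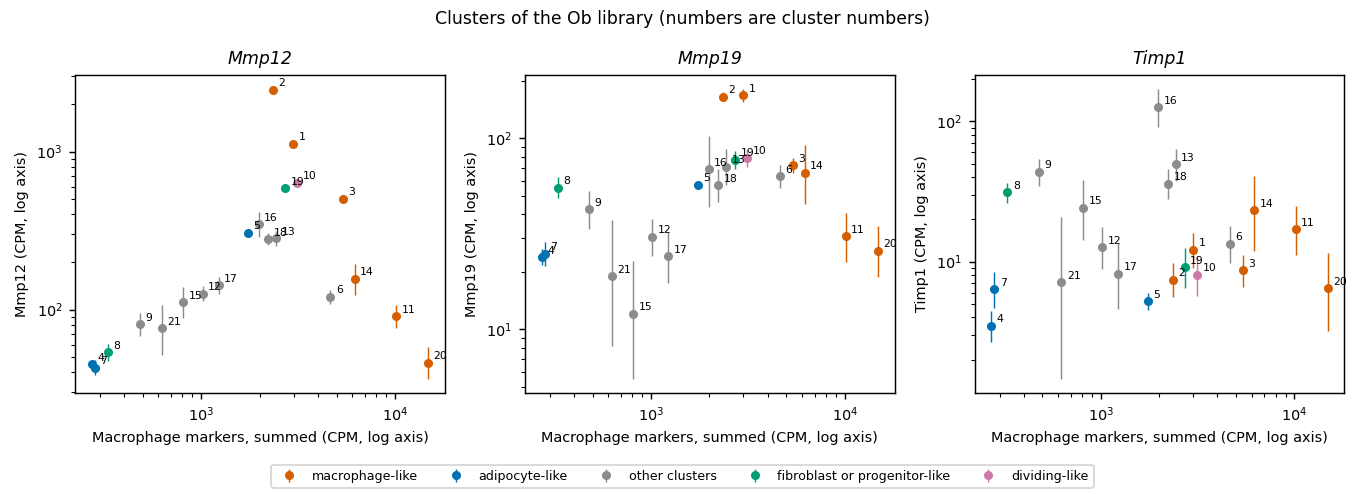
Levels of Mmp12, Mmp19 and Timp1 (CPM, log axes) in the 21 clusters of Ob, plotted against the summed level of the macrophage markers in the same cluster; bars are 95% counting intervals and numbers are cluster numbers. Mmp12 is highest in cluster 2 at 2452 CPM and low in clusters 11 and 20, which have the most macrophage markers, while Timp1 is highest in cluster 16 at 126 CPM. All points come from 1 library.

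Mmp19, a metalloproteinase of broad substrate range, was like Mmp12 lowest in Mid_Ob and highest in Ob. Unlike Mmp12, it was within 1.5-fold between Mid_Ob and Ctrl in whole libraries and in macrophage-like clusters. It had 22.6 CPM (21.3 to 23.9) in Ctrl, 16.2 CPM (15.2 to 17.3) in Mid_Ob and 60.7 CPM (59.3 to 62.2) in Ob. Ob was higher than Mid_Ob by a ratio of 3.74 (3.49 to 4.01) and higher than Ctrl by 2.69 (2.53 to 2.86), or 1.77 without testis and epididymis clusters. Macrophage-like clusters had 51.5, 42.6 and 114 CPM, and in Ob the 2 highest clusters were again macrophage-like, cluster 1 at 168 CPM and cluster 2 at 165 CPM, whose intervals overlap. In this class Ob was higher than Ctrl by a ratio of 2.21 (1.94 to 2.53), where Mmp12 was within 1.5-fold. In adipocyte-like clusters the ratio of 1.72 became 0.949 without cluster 5 of Ob, as for Mmp12.

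Mmp3 and Mmp10, the stromelysins, were rare. Mmp3 had 13 counts in Ctrl, 4 in Mid_Ob and 373 in Ob, or 0.241 (0.128 to 0.412), 0.0694 (0.0189 to 0.178) and 3.34 CPM (3.01 to 3.70). The intervals of Ob and of the other stages lie far apart, with a ratio of 48.2 (18.7 to 178) for Ob over Mid_Ob and 13.9 (8.02 to 26.3) for Ob over Ctrl. In Ob it was highest in cluster 9, which had no name, at 25.8 CPM and in fibroblast or progenitor-like cluster 8 at 21.8 CPM, where the intervals overlap. Mmp10 had 2 counts in Ctrl, 2 in Mid_Ob and 24 in Ob. Mmp11, or stromelysin 3, had 4.08, 2.69 and 3.27 CPM, and was lower in Mid_Ob than in Ctrl by a ratio of 0.660 (0.533 to 0.814).

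Mmp7, or matrilysin, a small epithelial protease, peaked at the middle stage, with 8.21 CPM (7.46 to 9.01) in Ctrl, 19.6 CPM (18.5 to 20.8) in Mid_Ob and 3.22 CPM (2.89 to 3.57) in Ob. In each library 1 cluster stood above the others: epididymal epithelium-like cluster 8 of Ctrl at 76.6 CPM (220 of 443 counts), cluster 7 of Mid_Ob at 273 CPM (429 of 1129) and cluster 17 of Ob at 97.4 CPM (178 of 359), the last 2 without a name. The median over the other clusters was 3.89, 11.3 and 1.18 CPM. Without testis and epididymis clusters the levels were 4.27, 23.9 and 3.22 CPM, with a ratio of 5.60 for Mid_Ob over Ctrl, and Ob over Ctrl was within 1.5-fold at 0.754 in place of 0.392. These values leave out cluster 8 of Ctrl but keep unnamed clusters 7 of Mid_Ob and 17 of Ob, so they do not treat the stages alike.

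The gelatinase Mmp2 was nearly level in whole libraries, at 6.30, 5.69 and 6.71 CPM, with a ratio of 1.07 (0.936 to 1.21) for Ob over Ctrl. In mesothelial-like clusters it had 17.8, 41.9 and 46.3 CPM in Ctrl, Mid_Ob and Ob, higher in Mid_Ob than in Ctrl by a ratio of 2.35 (1.76 to 3.14) and in Ob than in Ctrl by 2.60 (1.98 to 3.41). Mesothelial-like clusters held 10.4%, 4.05% and 2.48% of the UMIs of the 3 libraries, so the level inside the class was higher in Mid_Ob and Ob while the share of the class was lower.

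Of the membrane-anchored metalloproteinases, Mmp14, which activates the precursor of MMP2 at the cell surface, had 34.4 CPM (32.9 to 36.0), 26.5 CPM (25.2 to 27.9) and 14.8 CPM (14.1 to 15.5), lower in Ob than in Mid_Ob and than in Ctrl, with a ratio of 0.430 (0.402 to 0.460) for Ob over Ctrl. It was lower in Ob than in Ctrl also within adipocyte-like clusters, at 6.95 CPM in Ob and 18.9 CPM in Ctrl. Macrophage-like clusters had 5.54 CPM in Ob and 17.4 CPM in Ctrl, but without cluster 9 of Ctrl the ratio turned to 1.26. Mmp16 had 25.7, 4.53 and 2.89 CPM and was lower in both Mid_Ob and Ob than in Ctrl. In mesothelial-like clusters, where it was highest in Mid_Ob and Ob, the fold was smaller, with 77.0, 47.5 and 40.5 CPM. Mmp23 had 26.3, 11.1 and 13.2 CPM and Mmp24 2.83, 0.954 and 0.529 CPM. Mmp15 was higher at the middle stage alone, at 3.88 CPM (3.39 to 4.43) in Mid_Ob beside 1.44 CPM in Ctrl and 1.38 CPM in Ob. Each of these 5 genes was thus lower in Ob than in Mid_Ob or in Ctrl, and none was higher.

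Mmp28, or epilysin, was counted mostly in adipocyte-like nuclei, which held 68.6%, 89.7% and 94.4% of its counts in Ctrl, Mid_Ob and Ob. Whole libraries had 38.0, 59.9 and 58.3 CPM, a ratio of 1.53 (1.46 to 1.61) for Ob over Ctrl, which was 1.03 without testis and epididymis clusters. The ratio of Mid_Ob over Ctrl, 1.58, was then 1.47. Inside adipocyte-like clusters the level was 103, 115 and 99.3 CPM and stayed within 1.5-fold, while this class held 25.2%, 46.9% and 55.4% of UMIs. Mmp27 had 2.26, 0.954 and 1.84 CPM, and was highest in fibroblast or progenitor-like nuclei of Mid_Ob and Ob.

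Timp1, an inhibitor of most soluble metalloproteinases, differed most among the inhibitors. Its level was 0.908 CPM (0.672 to 1.20) in Ctrl, 1.58 CPM (1.27 to 1.94) in Mid_Ob and 9.83 CPM (9.26 to 10.4) in Ob, on 49, 91 and 1097 counts. Ob was higher than Mid_Ob by a ratio of 6.23 (5.03 to 7.80) and higher than Ctrl by 10.8 (8.13 to 14.7), or 8.03 without testis and epididymis clusters. Summed over each class, its level in Ob was above that of the earlier stages in adipocyte-like, macrophage-like, mesothelial-like and fibroblast or progenitor-like nuclei. In adipocyte-like clusters it had 0.440, 0.777 and 4.85 CPM, in macrophage-like 1.26, 1.97 and 9.65 CPM and in mesothelial-like 2.50, 4.28 and 12.7 CPM. Fibroblast or progenitor-like clusters had 20.8 CPM in Ob and 11.04 CPM in Mid_Ob. The value of Ob rested on cluster 8 at 31.1 CPM, since cluster 19 had 9.12 CPM (6.46 to 12.5). Endothelial-like clusters had 59.5 CPM in Ob and 5.96 CPM in Mid_Ob. The endothelial-like value of Ob rested on cluster 16, with 42 of the 45 counts, and without it the ratio of Ob over Mid_Ob was 1.19. Cluster 16 was named endothelial-like from its markers, at 2309 CPM, but its adipocyte and its fibroblast or progenitor markers summed to 18054 and 10494 CPM, so the name is uncertain. By cluster of Ob, Timp1 was highest in this cluster 16 at 126 CPM, and next in unnamed clusters 13 and 9 at 49.2 and 43.6 CPM, whose intervals overlap. Clusters 13, 16 and 18 of Ob were rich in hemoglobin transcripts, at 8234, 10016 and 7319 CPM. Timp1 overlaps Syn1 on the other strand, and whether counting used strand is not given in the sources used here.

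The other 3 inhibitors did not follow Timp1. Timp2, which also takes part in activating MMP2, had 134 CPM (131 to 137) in Ctrl, 55.9 CPM (54.0 to 57.9) in Mid_Ob and 94.5 CPM (92.8 to 96.4) in Ob, the lowest level at the middle stage. Without testis and epididymis clusters Ob was lower than Ctrl, by a ratio of 0.507, and the ratio of Ob over Mid_Ob was 1.38 in place of 1.69. Timp3, which stays bound to the matrix and also blocks ADAMTS proteases, had 65.4, 62.6 and 48.4 CPM, within 1.5-fold of each other, but without testis and epididymis clusters it had 83.5, 71.4 and 48.4 CPM and was lower in Ob than in Ctrl by a ratio of 0.579. Inside classes Timp3 diverged: mesothelial-like clusters had 142, 273 and 439 CPM, a ratio of 3.09 (2.82 to 3.38) for Ob over Ctrl, whereas adipocyte-like clusters had 25.4 CPM in Ob and 49.3 CPM in Ctrl and macrophage-like clusters 20.7 CPM in Ob and 43.8 CPM in Ctrl. Mesothelial markers in macrophage-like clusters moved with the last of these, at 492, 142 and 90.5 CPM in Ctrl, Mid_Ob and Ob, and their part in it was not tested. By cluster, Timp3 was highest in endothelial-like nuclei of both fat-fed stages, at 666 CPM in cluster 21 of Ob and 327 CPM in cluster 9 of Mid_Ob.

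Timp4 was the inhibitor highest in adipocyte-like nuclei of Ctrl, with 88.0, 47.1 and 18.8 CPM in this class at the 3 stages. The class ratio of Ob over Ctrl was 0.214 (0.197 to 0.232), and whole libraries had 36.1 CPM (34.6 to 37.8), 28.4 CPM (27.1 to 29.9) and 15.3 CPM (14.5 to 15.99). In Ob its highest levels were in unnamed clusters 13 and 18, at 77.6 and 73.0 CPM, which the class values do not include. Adipocyte markers summed to 25159.5 and 35120.5 CPM in these clusters, beside 28315.4 CPM in adipocyte-like cluster 5. Their mitochondrial shares were 6.18% and 8.39%. A level outside the class is thus not shown to lie outside adipocyte RNA. Timp3 overlaps Syn3 and Timp4 overlaps Syn2 on the other strand.

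**Figure D4:**
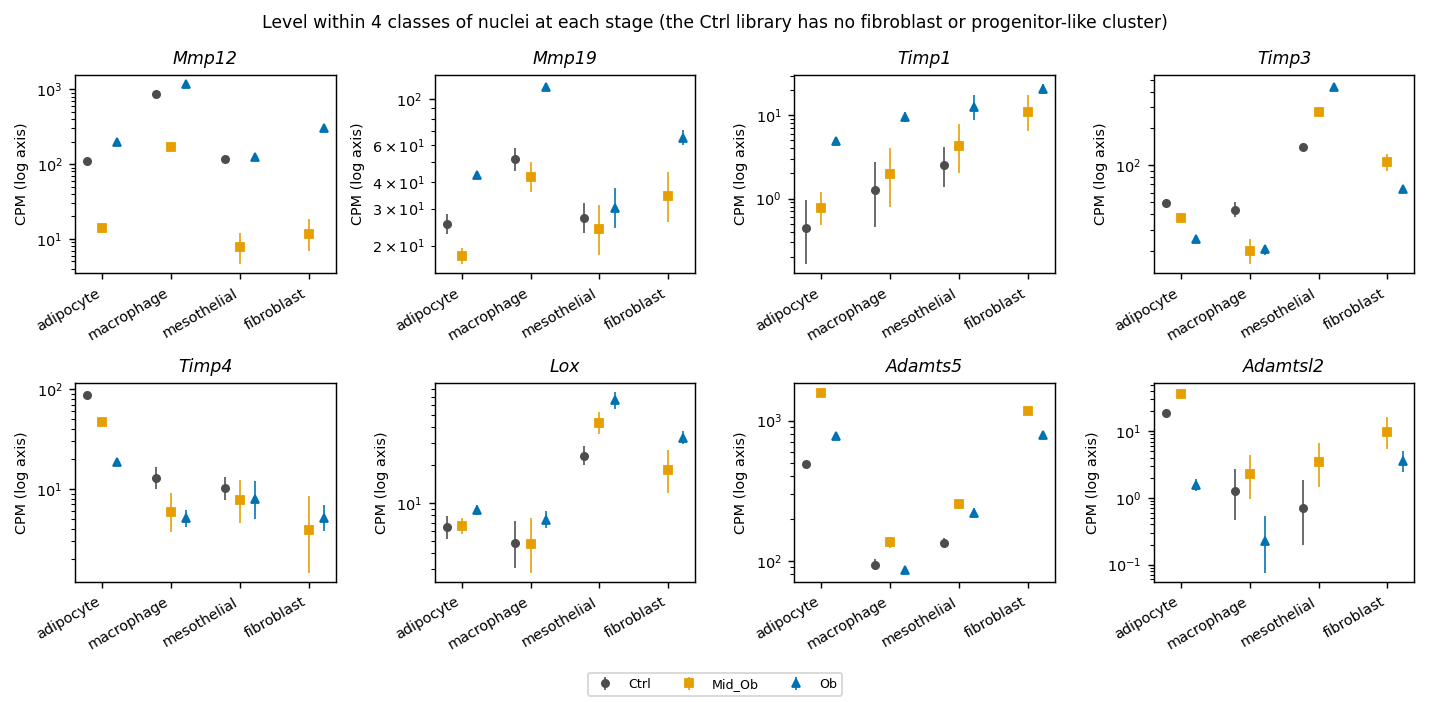
Levels of 8 members (CPM, log axes) in adipocyte-like, macrophage-like, mesothelial-like and fibroblast or progenitor-like clusters at each stage, with 95% counting intervals; no cluster of Ctrl was fibroblast or progenitor-like, and a level of 0 is not drawn. Timp1 is highest in Ob in each class, Timp4 in adipocyte-like nuclei is 88.0, 47.1 and 18.8 CPM, and Timp3 in mesothelial-like nuclei is 142, 273 and 439 CPM.

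Adamts1, 4, 5, 8, 9, 15 and 20 cut the large proteoglycans aggrecan or versican. Adamts5, an aggrecanase, had the highest count of all members. Its level was 257 CPM (252 to 261) in Ctrl, 842 CPM (834 to 849) in Mid_Ob and 561 CPM (557 to 566) in Ob, with a ratio of 3.28 (3.22 to 3.34) for Mid_Ob over Ctrl and 0.667 (0.659 to 0.675) for Ob over Mid_Ob. The peak at the middle stage lay in adipocyte-like clusters, which had 490, 1576 and 781 CPM and held 87.7% of its counts in Mid_Ob. It was also high in fibroblast or progenitor-like nuclei of Mid_Ob, at 1164 CPM, and in unnamed cluster 4 of Ctrl, at 1014 CPM, whose fibroblast or progenitor markers summed to 6143 CPM. Without testis and epididymis clusters the ratio of Ob over Mid_Ob was 0.484 and that of Ob over Ctrl was within 1.5-fold.

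Adamts1 had 10.4, 24.9 and 17.2 CPM and Adamts9 had 174, 246 and 125 CPM, and in whole libraries both were highest in Mid_Ob. For Adamts1 the ratio of Mid_Ob over Ctrl was 2.39 (2.16 to 2.64), and 2.23 without testis and epididymis clusters, where Ob over Ctrl was 1.16 in place of 1.64. For Adamts9 the peak was not seen without these clusters, with 238, 214 and 125 CPM, nor in adipocyte-like clusters, with 342, 258 and 185 CPM. Its highest cluster in Mid_Ob was epididymal epithelium-like cluster 3, at 410 CPM. Adamts1 and Adamts5 are neighbours on chromosome 16. Both Adamts1 and Adamts9 reached their highest level of Ob in endothelial-like cluster 21, at 107 and 704 CPM. Adamts4, the other main aggrecanase, had 32, 41 and 351 counts, or 0.593 (0.405 to 0.837), 0.711 (0.510 to 0.965) and 3.15 CPM (2.82 to 3.49), a ratio of 5.31 (3.69 to 7.88) for Ob over Ctrl. Like Mmp3 it was highest in Ob in cluster 8, at 25.6 CPM, and in cluster 9, at 20.4 CPM. Adamts15 had 12.004, 9.33 and 11.1 CPM, but 17.2, 8.85 and 11.1 CPM without testis and epididymis clusters, where Mid_Ob and Ob were both lower than Ctrl, by ratios of 0.516 and 0.648. Adamts20 had 12.3, 8.64 and 3.01 CPM, and 1 cluster of each library stood above the others: cluster 8 of Ctrl (292 of 665 counts), cluster 11 of Mid_Ob (373 of 498) and cluster 17 of Ob (202 of 336). Its order changed without testis and epididymis clusters, to 3.36, 12.01 and 3.01 CPM, and Ob over Ctrl was 0.897 in place of 0.244. That order leaves out cluster 8 of Ctrl but keeps clusters 11 of Mid_Ob and 17 of Ob, which had no name. The stages are thus not treated alike in it.

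The procollagen N-proteinases Adamts2, Adamts3 and Adamts14 trim the ends of new fibrillar collagen. Adamts2 had 87.9 CPM (85.4 to 90.4) in Ctrl, 143 CPM (140 to 146) in Mid_Ob and 150 CPM (148 to 153) in Ob, a ratio of 1.71 (1.66 to 1.77) for Ob over Ctrl. It had 127, 194 and 150 CPM without testis and epididymis clusters, with Ob over Ctrl at 1.19. It was highest in fibroblast or progenitor-like nuclei, at 555 CPM in Ob and 617 CPM in Mid_Ob. Adamts14 was highest in the same nuclei of Mid_Ob and Ob, with 6.32, 6.38 and 10.4 CPM in whole libraries, and its ratio of Ob over Ctrl was 1.64, or 1.19 without testis and epididymis clusters. Adamts3 belonged instead to mesothelial-like nuclei, with 94.7, 143 and 133 CPM there and 21.9, 12.2 and 11.5 CPM in whole libraries. By class of highest level in Mid_Ob and Ob, the 3 enzymes of this step were thus split between 2 classes of nuclei. They were not confined to these classes. Adamts14 had 55.5 and 41.6 CPM in lymphocyte-like clusters of Mid_Ob and Ob, beside 77.3 and 50.7 CPM in fibroblast or progenitor-like ones. Adipocyte-like clusters held 6190 of 8253 Adamts2 counts in Mid_Ob and 9114 of 16789 in Ob.

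Among the other ADAMTS proteases, Adamts6 and Adamts10, which act on fibrillin-rich fibres, were within 1.5-fold in whole libraries: 89.7, 107 and 94.7 CPM for Adamts6, and 64.9, 82.3 and 65.0 CPM for Adamts10. Outside testis and epididymis clusters Adamts10 had 96.8, 108 and 65.0 CPM and was lower in Ob than in Mid_Ob, by a ratio of 0.601. Adamts12 and Adamts7 cut cartilage oligomeric matrix protein. Adamts12 had 146, 111 and 189 CPM, a ratio of 1.71 (1.66 to 1.76) for Ob over Mid_Ob that was 1.33 without testis and epididymis clusters, and was highest in cluster 9 of Ob at 903 CPM, cluster 8 of Mid_Ob at 853 CPM and cluster 4 of Ctrl at 672 CPM. Adamts7 had 2.83, 1.54 and 1.19 CPM. Adamts16 had 140 CPM in cluster 4 of Ctrl, 209 CPM in cluster 8 of Mid_Ob and 126 CPM in cluster 8 of Ob, its highest clusters, and whole-library levels of 14.2, 10.3 and 16.7 CPM. Its ratio of Ob over Mid_Ob was 1.62, or 1.29 without testis and epididymis clusters. Adamts17 and Adamts19 were low in Ob: Adamts17 had 33.8, 4.16 and 0.869 CPM and Adamts19 31.4, 5.15 and 7.67 CPM. Both were highest in germ cell-like cluster 13 of Ctrl, each at 139 CPM, and without testis and epididymis clusters the levels were 8.602, 2.39 and 0.869 CPM for Adamts17 and 12.2, 6.79 and 7.67 CPM for Adamts19.

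The ADAMTS-like proteins bind matrix fibres but cannot cut them. Adamtsl1 was one of the leading genes of mesothelial-like clusters at each stage, with 2668, 2181 and 2199 CPM in this class. Whole libraries had 501 CPM (495 to 507), 182 CPM (178 to 185) and 152 CPM (149 to 154), so the level within the class was close while the level in the library was lower in Mid_Ob and Ob than in Ctrl, as was the share of the class. Adamtsl1 overlaps Sh3gl2 on the same strand, and their reads could be split between them. Adamtsl2, which binds fibrillin and latent TGF-beta binding proteins, had 6.34 CPM (5.68 to 7.04) in Ctrl, 18.7 CPM (17.6 to 19.8) in Mid_Ob and 1.25 CPM (1.06 to 1.48) in Ob. It was highest in adipocyte-like nuclei of Ctrl and Mid_Ob, with 19.01, 36.0 and 1.57 CPM in this class over the 3 stages. Within the class the ratio of Ob over Mid_Ob was 0.0436 (0.0350 to 0.0537), a contrast that clusters 4, 5 and 7 of Ob shared.

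Adamtsl3 had 15.5, 55.04 and 22.3 CPM, and the level of Mid_Ob rested on epididymal epithelium-like cluster 2 at 252 CPM; without testis and epididymis clusters it was 16.02, 22.4 and 22.3 CPM. Adamtsl4, also a fibrillin binder, had 15.5, 15.8 and 15.4 CPM, within 1.5-fold with or without these clusters. Adamtsl5 had 34.2, 18.4 and 33.5 CPM, or 50.8, 22.8 and 33.5 CPM without them, and was highest in mesothelial-like nuclei at each stage.

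The lysyl oxidases crosslink collagen and elastin. Lox had 7.15 CPM (6.46 to 7.90) in Ctrl, 6.80 CPM (6.14 to 7.51) in Mid_Ob and 14.2 CPM (13.5 to 14.9) in Ob, a ratio of 1.98 (1.77 to 2.22) for Ob over Ctrl. Without testis and epididymis clusters Ob over Ctrl was within 1.5-fold, and Ob over Mid_Ob was 1.60. Within mesothelial-like clusters it was higher at each later stage than at the one before, with 23.9, 43.2 and 65.4 CPM, a ratio of 2.74 (2.18 to 3.45) for Ob over Ctrl. In Ob its highest levels were in cluster 13 at 75.9 CPM, cluster 16 at 71.8 CPM and cluster 12 at 65.4 CPM, which overlap in their intervals.

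Loxl1, which is needed for elastic fibres, had 28.0, 32.3 and 45.2 CPM, a ratio of 1.61 (1.52 to 1.71) for Ob over Ctrl that was 1.14 without testis and epididymis clusters, and was highest in fibroblast or progenitor-like cluster 8 of Ob at 256 CPM and cluster 8 of Mid_Ob at 217 CPM. Loxl2, which acts on collagen IV, had 7.85, 6.38 and 8.52 CPM, and Loxl3 18.8, 22.8 and 21.3 CPM, both within 1.5-fold. With testis and epididymis clusters left out, Loxl3 had 27.9, 16.8 and 21.3 CPM and was lower in Mid_Ob than in Ctrl, by a ratio of 0.601. Loxl4 had 1.61, 1.08 and 1.02 CPM and was highest in mesothelial-like nuclei at each stage. Loxl3 overlaps Htra2 on the other strand.

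**Figure D5:**
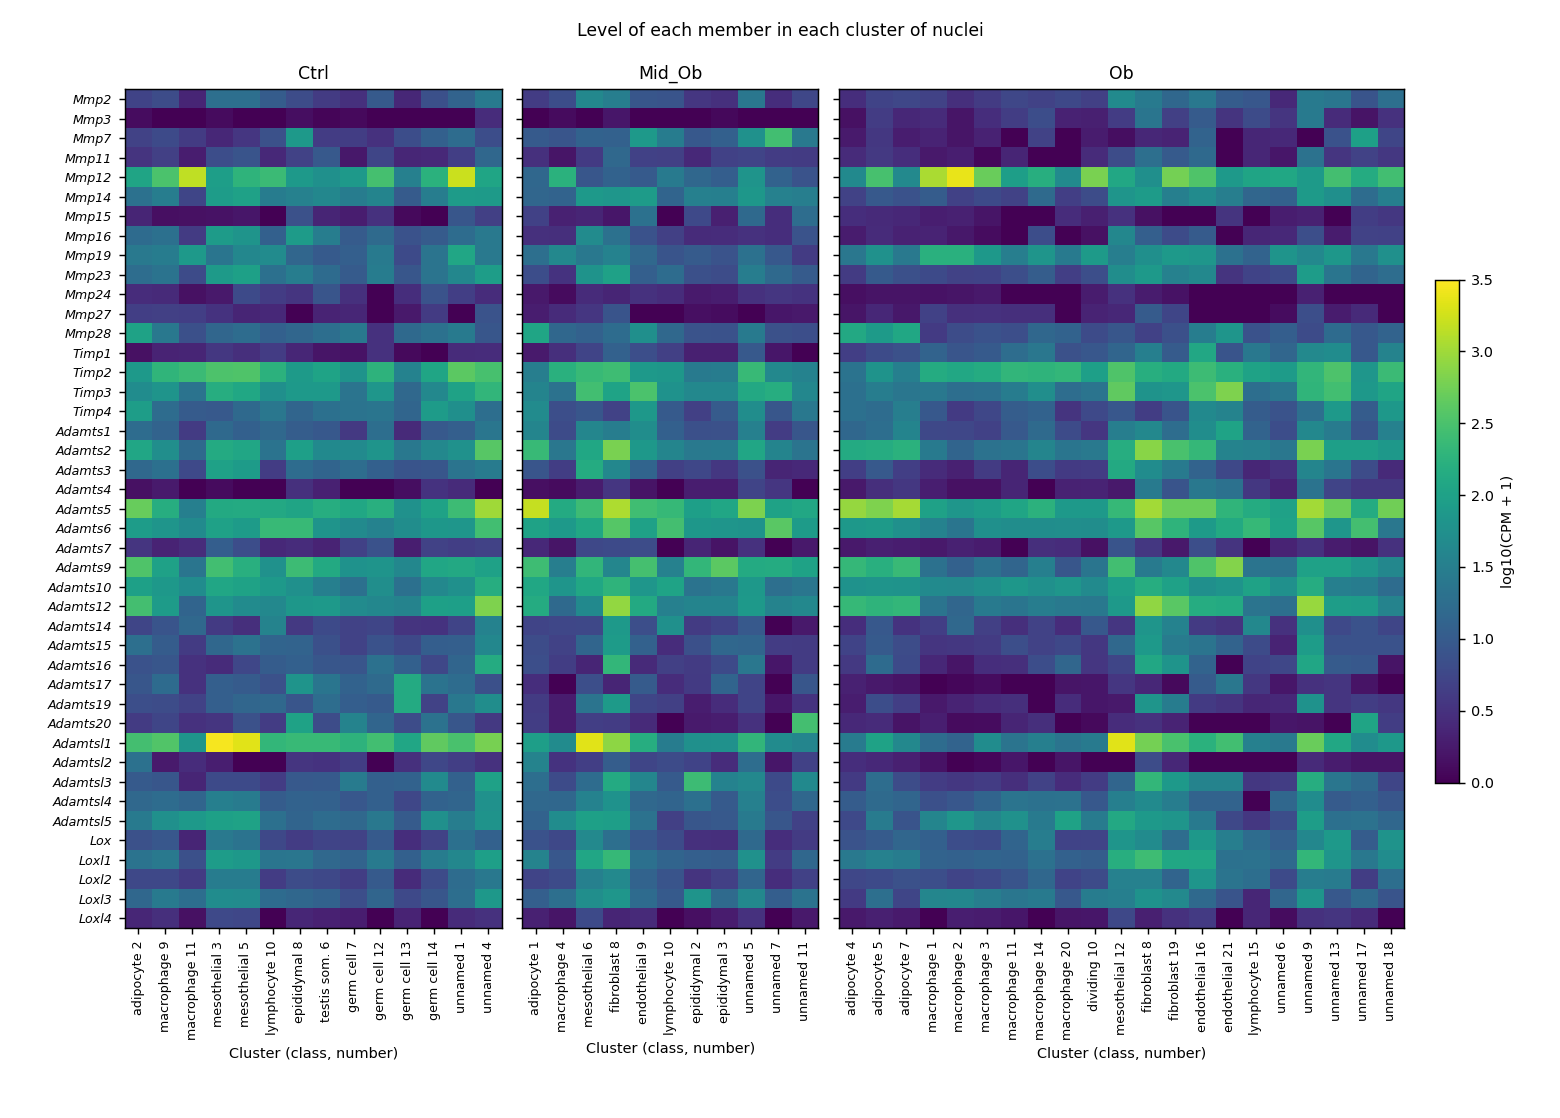
Level of each member in each cluster of the 3 libraries, as log10 of CPM plus 1. Adamtsl1 is highest in mesothelial-like clusters at each stage, Mmp28 in adipocyte-like clusters, and Mmp12 and Mmp19 in macrophage-like clusters of Mid_Ob and Ob.

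The class with the highest level was compared between libraries for members with at least 10 counts in a cluster. It was the same at all 3 stages for 5 of 43 members: Adamts3, Adamtsl1, Adamtsl5 and Loxl4 in mesothelial-like nuclei and Mmp28 in adipocyte-like nuclei. Adamts20 and Mmp7 were highest in unnamed clusters of Mid_Ob and Ob, which are not shown to be the same kind of nuclei. With these 2 genes counted as sharing a class, Mid_Ob and Ob shared the class of highest level for 22 of 44. Of these, 7 were highest in fibroblast or progenitor-like nuclei (Adamts2, 10, 14, 16, 19, Loxl1 and Mmp27), 6 in mesothelial-like nuclei, with Mmp2 and Mmp16 added, and 2 in macrophage-like nuclei (Mmp12 and Mmp19). No cluster of Ctrl was fibroblast or progenitor-like, so such members could not count as shared by the 3 stages, and clusters were made from these genes too, so these levels are a description.

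In adipocyte-like clusters, 8 of 38 members were higher and 14 lower in Mid_Ob than in Ctrl, where 15.3% and 20.2% of all genes were, and 8 and 14 of 43 in Ob than in Mid_Ob, beside 15.3% and 19%. Between Ob and Ctrl, 7 of 43 were higher and 19 lower, beside 18.8% and 27.6% of all genes. The 19 lower members held Timp2, Timp3 and Timp4, the membrane-anchored Mmp14, Mmp16, Mmp23 and Mmp24, and 7 Adamts genes. In this class Adamts2 had 229 CPM in Mid_Ob and 115 CPM in Ctrl, and Loxl1 had 35.6 CPM in Mid_Ob and 20.8 CPM in Ctrl. Without cluster 5 of Ob, 2 members in place of 7 were higher in Ob than in Ctrl. Between Ob and Mid_Ob, 3 in place of 8 were then higher and 23 in place of 14 lower. The shares of all genes without cluster 5 are not given.

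In macrophage-like clusters, 0 of 23 members were higher and 11 lower in Mid_Ob than in Ctrl (all genes 8.71% and 14.8%), 7 and 9 of 30 in Ob than in Mid_Ob (13.1% and 18.4%), and 3 and 18 of 32 in Ob than in Ctrl (13.7% and 24.1%). The 3 higher were Mmp19, Timp1 and Lox, of which the interval of Lox, 1.54 (0.991 to 2.50), holds 1. The 18 lower included fibroblast or mesothelial genes such as Adamtsl1, at 26.7 CPM in Ob and 217 CPM in Ctrl, and Adamts12, at 20.6 CPM in Ob and 48.4 CPM in Ctrl. These counts rested on cluster 9 of Ctrl, which carried more adipocyte, mesothelial and fibroblast or progenitor markers (4591, 761 and 1209 CPM) than cluster 11 of Ctrl (1995, 197 and 349 CPM). Without cluster 9, 10 members were higher and 6 lower in Ob than in Ctrl, and 5 and 3 in Mid_Ob than in Ctrl. Without cluster 11 of Ctrl, Lox had a ratio of 0.927 in Ob over Ctrl, and without cluster 3 of Ob 5 members in place of 3 were higher. Shares of all genes without these clusters are not given, so whether the shifts are particular to the members is not known. Between Ob and Mid_Ob, Loxl3 was higher in this class, at 33.2 CPM in Ob and 17.8 CPM in Mid_Ob.

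In mesothelial-like clusters, 8 of 30 members were higher and 4 lower in Mid_Ob than in Ctrl (all genes 8.06% and 12.3%), 5 and 3 of 26 in Ob than in Mid_Ob (13.3% and 9.58%) and 7 and 6 of 30 in Ob than in Ctrl (15.3% and 18.1%). The 7 were Timp3, Lox, Loxl1, Mmp2, Adamts1, Adamts5 and Adamtsl3. Loxl1 had 154 CPM in Ob and 80.6 CPM in Ctrl, and Adamts5 had 220 CPM in Ob and 135 CPM in Ctrl. In this class 6 of the 7 were also higher in Mid_Ob than in Ctrl, and the 2 comparisons share Ctrl. Mesothelial markers were close at the 3 stages, at 5530, 5717 and 6001 CPM, while macrophage markers were 340, 284 and 1018 CPM.

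Fibroblast or progenitor-like nuclei were compared between Ob and Mid_Ob alone. Of 35 members 6 were higher and 13 lower in Ob, where 18.6% and 13.4% of all genes were. The lower ones included Timp2, at 145 CPM in Ob and 260 CPM in Mid_Ob, Adamts16, at 97.2 CPM in Ob and 209 CPM in Mid_Ob, and Adamtsl1, at 452 CPM in Ob and 802 CPM in Mid_Ob. Without cluster 19 of Ob, 4 members in place of 13 were lower. In endothelial-like nuclei 12 of 21 members were higher in Ob than in Mid_Ob and 3 lower (all genes 13.3% and 19.8%). These counts rested on cluster 16 of Ob, which carried fibroblast or progenitor, adipocyte and macrophage markers at 10494, 18054 and 1983 CPM, where the endothelial-like cluster of Mid_Ob had 1303, 5567 and 590 CPM. Without cluster 16, 5 were higher in place of 12. Lox then kept a ratio of 3.79 on 13 counts in Ob, while those of Timp1 and Loxl1 were 1.19 and 1.03. The shares of all genes without cluster 19 or cluster 16 are not given.

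The 12 members with under 200 counts over the 3 libraries were Adamts8 (142 counts), Mmp9 (136), Mmp17 (133), Adamts18 (125), Mmp25 (119), Mmp13 (116), Mmp21 (75), Adamts13 (66), Mmp8 (32), Mmp10 (28), Mmp1b (12) and Mmp20 (8). Their levels were at most 1.22 CPM in any library. Mmp9, the other gelatinase, had 1.22 CPM (0.946 to 1.56) in Ctrl, 0.468 CPM (0.309 to 0.681) in Mid_Ob and 0.385 CPM (0.279 to 0.519) in Ob, and was thus lower at both later stages. Adamts8 had 1.07, 0.798 and 0.341 CPM. The collagenases Mmp8 and Mmp13 had at most 0.156 and 0.630 CPM. Mmp1b and Mmp20 had 0 counts in Mid_Ob, where 3 counts would be 0.0520 CPM, so levels under that could not be told from 0.

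The wider pathway was read from 8 lists in whole libraries. Beside the counts below, 17.3% of all genes were higher and 35.5% lower in Mid_Ob than in Ctrl. The shares of all genes were 17.5% and 27.3% in Ob against Mid_Ob, and 18.1% and 43.5% in Ob against Ctrl. Of 13 cathepsins, lysosomal proteases that can also degrade collagen, 1 was higher and 5 lower in Mid_Ob than in Ctrl, 9 and 0 in Ob than in Mid_Ob, and 8 and 0 in Ob than in Ctrl. The 4 most abundant in Ob were Ctsb (418 CPM in Ob, 123 CPM in Mid_Ob), Ctss (244 CPM in Ob, 41.7 CPM in Mid_Ob), Ctsc (224 CPM in Ob, 87.7 CPM in Mid_Ob) and Ctsl (175 CPM in Ob, 59.7 CPM in Mid_Ob), of which Ctss is also a macrophage marker. Without testis and epididymis clusters, 2 cathepsins (Ctsh and Ctss) were higher in Ob than in Ctrl, where 17% of all genes were.

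In the plasmin system, which activates metalloproteinases, 2 of 9 genes were higher and 1 lower in Mid_Ob than in Ctrl, 4 and 2 of 9 in Ob than in Mid_Ob, and 5 and 2 of 9 in Ob than in Ctrl. Plaur, the urokinase receptor, had 16.7, 14.03 and 49.2 CPM in Ctrl, Mid_Ob and Ob. Of 10 ADAM sheddases, 2 were higher and 4 lower in Mid_Ob than in Ctrl, 4 and 0 in Ob than in Mid_Ob, and 4 and 3 in Ob than in Ctrl. Adam12 had 93.8, 162 and 480 CPM. Of the other matrix proteases and inhibitors, 3 were higher and 8 lower of 19 in Mid_Ob than in Ctrl, 2 and 4 of 18 in Ob than in Mid_Ob, and 4 and 11 of 19 in Ob than in Ctrl, with Dpp4 at 229, 264 and 86.2 CPM. In whole libraries the inhibitors and activators around the metalloproteinases thus did not share 1 direction. The shares of all genes are those given before the cathepsins, and values of these lists without testis and epididymis clusters are not given.

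Among the substrates, 1 of 11 fibrillar collagens was higher and 4 lower in Mid_Ob than in Ctrl, 4 and 2 of 10 in Ob than in Mid_Ob, and 5 and 4 of 11 in Ob than in Ctrl. Col3a1 had 304, 274 and 582 CPM, Col5a3 109, 315 and 446 CPM and Col1a2 105, 78.1 and 178 CPM. Of 17 elastic fibre genes, 2 were higher and 4 lower in Mid_Ob than in Ctrl, 7 and 2 in Ob than in Mid_Ob, and 4 and 5 in Ob than in Ctrl, with Fbn1 at 264, 235 and 369 CPM and Eln at 86.2, 75.1 and 67.1 CPM. Of the proteoglycans, 5 were higher and 3 lower of 11 in Mid_Ob than in Ctrl, 6 and 1 of 9 in Ob than in Mid_Ob, and 6 and 4 of 12 in Ob than in Ctrl. Versican (Vcan), a substrate of several ADAMTS proteases, had 39.1, 35.9 and 91.0 CPM. Of the enzymes that prepare collagen for crosslinking, 2 were higher and 1 lower of 11 in Mid_Ob than in Ctrl, 4 and 1 of 12 in Ob than in Mid_Ob, and 4 and 2 of 12 in Ob than in Ctrl, with Serpinh1, a collagen chaperone, at 33.7, 57.8 and 74.6 CPM. Col1a2 and Col3a1 are also fibroblast or progenitor markers, and this class held 2.67% of UMIs in Mid_Ob and 7.97% in Ob. The shares of all genes for these substrate lists are those given before the cathepsins. Values without testis and epididymis clusters are not given for them. Those clusters held 26.3%, 15.4% and 5.32% of the UMIs of Ctrl, and their part in these differences was not tested.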

How the data were processed

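The authors aligned reads with Cell Ranger, which includes STAR; versions, genome build, annotation and strand of counting were not found in the sources used. The authors made the deposited signal values, a mean count per gene and cluster, with Cell Ranger, by dividing the UMI counts of a gene by the summed size factor of the nuclei. The other deposited columns, log2 fold changes and adjusted p-values of a cluster over the other nuclei, take nuclei as replicates and were not used. Dividing by the smallest value of a cluster gave back whole counts for 100% of values within 0.001. The numbers of nuclei, and whether doublets had been removed from these tables, are not given there, and raw reads were not used here.

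Counts were summed over libraries, classes or clusters and divided by their UMIs (CPM), with exact Poisson intervals for levels and conditional exact binomial intervals for ratios (95%, counting error only). Against 0 counts, 3 counts were used. Count recovery and interval coverage were checked with simulated counts. Clusters were named from marker lists. Members and lists were chosen with earlier results of these data known. Members with at least 200 counts over the 3 libraries were described one by one, the others by counts and ranges, and up to 4 of the most abundant genes of a list were named. Some items are not reported here. Alternatives were the median gene ratio as the scaling, equal weight for clusters, other count minimums (10 and 200), a fold of 2, and analyses without unnamed clusters, without cluster 5 of Ob, or without testis and epididymis clusters; leaving out other single clusters, and clusters 13, 16 and 18 of Ob, was chosen after seeing the data. Of the 29625 gene identifiers, 29565 matched GENCODE M21, from which overlapping genes were read. By it, 25 members overlap a gene on the other strand and 6 on the same strand, so their counts are uncertain. Chromosomes, neighbouring genes and promoters are from RefSeq. Calculations were run in Python 3.11.15 with pandas 2.3.3, numpy 2.4.6 and scipy 1.17.1, and plots drawn with matplotlib 3.10.9.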

Additional observations from a re-analysis of the deposited data

Results flagged for a closer look

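For 16 values a member was past 1.5-fold higher in 1 class of nuclei and past 1.5-fold lower in another, in the same comparison of stages. These differences were not tested, since each stage was 1 library; they are given as the ratio in the first class over the ratio in the second.

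Of these, 3 concern Timp3, whose ratio in mesothelial-like clusters was 6.54 times that in macrophage-like clusters for Ob over Ctrl, 4.21 times for Mid_Ob over Ctrl and, against fibroblast or progenitor-like clusters, 2.64 times for Ob over Mid_Ob. The same class led for Adamts1 in Ob over Ctrl (3.54 times that in macrophage-like clusters) and in Mid_Ob over Ctrl for Adamts3 (5.33 times macrophage-like) and Adamts19 (3.63 times adipocyte-like).

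In Ob over Mid_Ob, endothelial-like clusters led for Loxl2 and Timp2 (6.19 and 4.73 times fibroblast or progenitor-like), Adamts9 and Adamtsl1 (3.63 and 2.75 times macrophage-like), and Adamts1 and Adamts2 (3.30 and 2.42 times adipocyte-like). Adipocyte-like clusters led for Adamts16 (3.39 times macrophage-like in Ob over Ctrl, 3.83 times fibroblast or progenitor-like in Ob over Mid_Ob) and Loxl1 (3.504 times macrophage-like in Mid_Ob over Ctrl). For Loxl3, macrophage-like clusters led over mesothelial-like ones in Ob over Mid_Ob, 3.07 times. Without cluster 9 of Ctrl the macrophage-like ratio of Adamts1, Adamts16 and Timp3 in Ob over Ctrl, and of Adamts3, Loxl1 and Timp3 in Mid_Ob over Ctrl, was no longer past 1.5-fold lower. Without cluster 5 of Ob the adipocyte-like ratio of Adamts16 was below 1 in both comparisons. Without cluster 16 of Ob the endothelial-like ratio of Adamts2 in Ob over Mid_Ob was 0.486, below the adipocyte-like ratio of 0.644.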

How the results depend on the processing

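No paired analysis was possible because each stage was 1 library. Counts of members past 1.5-fold moved by over 1.5 times as follows. The share of all genes is given above for the setting without testis and epididymis clusters, and is not given for the others. In whole libraries, equal weight for every cluster gave 11 in place of 18 lower members in Mid_Ob against Ctrl and 7 in place of 14 higher in Ob against Mid_Ob. Leaving out testis and epididymis clusters gave 8 in place of 14 higher in Ob against Mid_Ob and 5 in place of 13 higher in Ob against Ctrl. A fold of 2 gave 6 higher and 7 lower (in place of 14 and 12) in Ob against Mid_Ob and 6 higher (in place of 13) in Ob against Ctrl.

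Within macrophage-like clusters, leaving out cluster 9 of Ctrl gave 5 higher and 3 lower (in place of 0 and 11) in Mid_Ob against Ctrl and 10 higher and 6 lower (in place of 3 and 18) in Ob against Ctrl, and leaving out cluster 3 of Ob gave 5 higher in Ob against Ctrl. Within adipocyte-like clusters, equal weight gave 5 higher in Ob against Mid_Ob and 4 in Ob against Ctrl (in place of 8 and 7), and leaving out cluster 5 of Ob gave 3 higher and 23 lower (in place of 8 and 14), and 2 higher. Leaving out cluster 19 of Ob gave 4 in place of 13 lower fibroblast or progenitor-like members, and leaving out cluster 16 gave 5 in place of 12 higher endothelial-like members.

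Single ratios crossed 1 in 21 cases. With equal weight, Ob over Mid_Ob was 0.842 for Adamts14 and 0.804 for Adamts16. Without cluster 9 of Ctrl, macrophage-like Mid_Ob over Ctrl was 1.19 for Adamts12, 1.40 for Adamts9 and 1.28 for Loxl1, and Ob over Ctrl was 1.59 for Adamts1, 1.68 for Adamts12, 1.03 for Adamts15, 1.08 for Adamts16, 1.33 for Adamts2, 2.15 for Adamtsl3, 1.26 for Mmp14 and 1.001 for Timp3. Without cluster 11 of Ctrl, Lox was 0.927 in Ob over Ctrl. Without cluster 5 of Ob, adipocyte-like Ob over Mid_Ob was 0.587 for Adamts16, 0.485 for Adamtsl5 and 0.785 for Timp2, and Ob over Ctrl was 0.530 for Adamts16, 0.407 for Mmp12 and 0.949 for Mmp19. Without cluster 16 of Ob, endothelial-like Adamts2 was 0.486 in Ob over Mid_Ob. The cause of these differences was not tested.

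When levels were scaled by the median gene ratio, 0 of 128 whole-library ratios and 0 of 350 class ratios crossed 1, and 4 and 8 of them were no longer past 1.5-fold. Leaving out clusters 13, 16 and 18 of Ob, which was chosen after seeing the data, changed the side or call of 0 of 86 whole-library ratios. Class ratios were not part of that setting. Among endothelial-like ratios, leaving out cluster 16 of Ob alone moved 1 of 21 across 1. Levels under 3 counts, 0.0556, 0.0520 and 0.0269 CPM in Ctrl, Mid_Ob and Ob, could not be told from 0.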
